A study of Mus musculus with 12 samples.

Results

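Haem is made from glycine and succinyl-CoA by a chain of enzymes that begins in the mitochondrion, passes through the cytosol and ends in the mitochondrion again. The genes described here are 9 members of that pathway, taken by name from the deposited expression table of 21853 genes. They are Alas1 and Alas2 (the ubiquitous and the erythroid form of 5-aminolevulinate synthase, the entry enzyme), Slc25a38 (a mitochondrial glycine carrier), Alad, Uros and Urod (cytosolic enzymes that build the tetrapyrrole ring and trim its side chains) and Cpox, Ppox and Fech (mitochondrial enzymes that finish protoporphyrin and insert iron). All 9 were found in the table, and all 9 passed the filter on low values. FPKM, the unit used throughout, divides the fragments assigned to a gene by its transcript length and by the library's mapped fragments, and the filter asked for 1 FPKM or more in 3 or more of the 12 libraries.

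The values came from RNA of whole bone marrow cells of B6 mice, 3 libraries in each of 4 groups, taken at day 14. Control mice were not irradiated, and no gavage is stated for them. TBI mice received 5 Gy of gamma rays over the whole body at 0.66 Gy/min and then 100 uL of olive oil, the vehicle, by gavage. TBI+DEIX mice received the same dose of radiation and then DEIX by mouth at 25 mg/kg once a day for 14 days. DEIX mice received DEIX without irradiation. The title of the series names the compound as deinoxanthin, a carotenoid made by Deinococcus bacteria. The labels do not say whether the 3 libraries of a group came from separate mice, so the p-values measure the spread between these libraries. Because the control group has no stated vehicle, an effect of dosing cannot be told apart from the differences from control.

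In the marrow, most haem is made by red cell precursors, which load it into haemoglobin. Those cells use Alas2, an X-linked gene whose transcription is driven by GATA1 and whose translation depends on iron. Other marrow cells make smaller amounts of haem for cytochromes, peroxidases and oxidases through Alas1, which haem itself holds down. The marrow label was checked against markers. The neutrophil genes Lcn2, Retnlg and Camp had mean levels of 8666, 8623 and 6965 FPKM over the 12 libraries, and the haemoglobin genes Hba-a1 and Hbb-bs had 1684 and 1221 FPKM. Hba-a1 and Hba-a2 are near-identical copies, so the split between them is uncertain. None of the 23 erythroid markers measured was listed at 0 in any library.

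Summed over genes, FPKM per library came to between 493683 and 848843, and between 10359 and 10832 genes had at least 1 FPKM. Total reads are unknown. Low values moved in steps of whole reads, and the FPKM worth of 1 read, relative to control replicate 1, was between 0.892 and 2.14. A higher value means fewer reads, and it was 1.51 to 2.14 in the TBI+DEIX libraries and 1.11 to 1.68 in the DEIX libraries. Several libraries stood apart within their group. DEIX replicate 2 had an erythroid score (the mean over the 23 erythroid markers of log2(FPKM + 1), each centred on its own mean) of 1.11, while DEIX replicates 1 and 3 were at -0.71 and -0.57. TBI replicate 2 was at -0.01 beside 1.26 and 0.93 in the other TBI libraries, and TBI+DEIX replicate 2 was at -0.35 beside -1.57 and -1.65. The 3 control libraries lay between 0.44 and 0.59. Values without them stand beside the results that they move most.

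On the GRCm38 assembly, Alas2 spans positions 150547375 to 150570638 of chromosome X on the plus strand and Alas1 spans 106233455 to 106248654 of chromosome 9 on the minus strand. Slc25a38 lies at 120110374 to 120124504 of chromosome 9, Alad at 62509169 to 62519918 and Urod at 116989965 to 116994413 of chromosome 4, Uros at 133686243 to 133710072 of chromosome 7, Cpox at 58670292 to 58717636 of chromosome 16 and Ppox at 171275990 to 171281186 of chromosome 1. Promoter windows of 250 bases before the annotated start were taken from RefSeq for GRCm38.p6, where 8 of the 9 genes were matched. They were searched on both strands for the GATA forms AGATAA (or AGATAG in its place) and TGATAA (or TGATAG in its place), which were in 26.5% of 32851 windows of this length over all genes. Alas1, Alad and Uros had 2 windows each, and the other matched genes had 1. Windows of Alas2, Cpox and the second start of Uros held a match. Whether matches were more frequent in these windows than over all genes was not tested. Windows of Alas1, Alad, Urod, Ppox, Slc25a38 and the first start of Uros held none. Both Alas1 windows lay inside the Alas1 span given above, with 250 and 235 of their 250 bases in annotated exons. The search therefore did not cover sequence upstream of that span. The upstream stretches with a match are shown because they hold these letters. Bases that overlap an annotated exon are left out, and capitals mark the GATA forms or their reverse complements.
Alas2, chrX:150547167-150547374, plus strand: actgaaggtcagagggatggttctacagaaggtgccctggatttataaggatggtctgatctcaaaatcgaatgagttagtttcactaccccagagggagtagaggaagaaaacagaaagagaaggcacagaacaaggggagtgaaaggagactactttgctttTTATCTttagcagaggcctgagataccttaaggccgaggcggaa
Cpox, chr16:58669958-58670207, plus strand: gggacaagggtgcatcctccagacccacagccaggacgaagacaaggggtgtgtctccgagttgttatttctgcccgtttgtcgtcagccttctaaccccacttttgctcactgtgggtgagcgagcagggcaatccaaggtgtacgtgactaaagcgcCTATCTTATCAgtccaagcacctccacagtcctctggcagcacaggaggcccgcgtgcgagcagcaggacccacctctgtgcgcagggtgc
Uros, second start, chr7:133702617-133702750, minus strand: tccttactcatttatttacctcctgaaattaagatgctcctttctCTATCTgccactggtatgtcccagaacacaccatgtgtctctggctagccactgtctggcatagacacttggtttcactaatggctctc
Distances were taken to the RefSeq starts, at 150547417 for Alas2, 58670208 for Cpox and 133702500 for the second start of Uros. These starts differ from the edges of the gene spans given above, and the second Uros start lies inside its span. The Alas2 match begins 86 bases before its RefSeq start. The overlapping Cpox matches begin 91 and 86 bases before theirs, and the Uros match begins 205 bases before. The other Uros match overlaps an annotated exon and is not shown. Such a match is a string of letters and not a measured binding site, and the expression table holds no measurement of binding.

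Alas2 had the widest range of the 9 genes, and it was low in the marrow of irradiated mice given DEIX. Its level was 46.9, 40.5 and 55.3 FPKM in the control libraries and 132, 18.0 and 45.5 FPKM in the TBI libraries. It was 2.58, 17.6 and 4.19 FPKM in the TBI+DEIX libraries and 23.0, 113 and 24.6 FPKM in the DEIX libraries. All 3 TBI+DEIX values were below every other library, but TBI+DEIX replicate 2 and TBI replicate 2 lay next to each other at 17.6 and 18.0 FPKM. The means were 47.6 ± 7.45 FPKM in control, 53.6 ± 51.6 in DEIX, 65.2 ± 59.4 in TBI and 8.12 ± 8.24 in TBI+DEIX (SD, n = 3 each). On the scale of log2(FPKM + 1), which understates the change of low values, Alas2 fell by 2.78 (SE 0.79) from control to TBI+DEIX, with an adjusted p of 0.0223 in limma. Against TBI the difference was -2.80 (SE 0.79, 95% interval -4.54 to -1.07) and missed the threshold of 0.05, with an adjusted p of 0.0525. With 1 library left out, this difference lay between -3.51 and -2.08. Over 11 other alternative runs it lay between -3.02 and -0.94, with limma adjusted p from 0.0433 to 0.182. In whole marrow, fewer red cell precursors and less Alas2 RNA per precursor cannot be told apart.

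Alas1 was the most abundant of the 9 genes in every group and was higher with the combined treatment. The control libraries gave 110, 115 and 112 FPKM and the TBI libraries 172, 135 and 103 FPKM. The TBI+DEIX libraries gave 215, 231 and 254 FPKM and the DEIX libraries 256, 121 and 185 FPKM. No TBI+DEIX library overlapped with a control or TBI library (23.9% of all genes tested lay wholly above control in this way). All DEIX libraries lay above control, as for 23.4% of all genes, though DEIX replicate 2 at 121 FPKM lay just above the control range. The means were 113 ± 2.30 FPKM in control, 188 ± 67.5 in DEIX, 137 ± 34.5 in TBI and 233 ± 19.6 in TBI+DEIX (SD, n = 3 each). Alas1 rose from control to TBI+DEIX by 1.04 (SE 0.24) on the log2 scale, with an adjusted p of 0.00894 in limma. It passed in every alternative run, with adjusted p from 2.76e-05 to 0.031. Its differences of 0.80 (SE 0.24) between TBI+DEIX and TBI and 0.67 (SE 0.24) between DEIX and control had limma adjusted p of 0.0654 and 0.12.

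**Figure D1:**
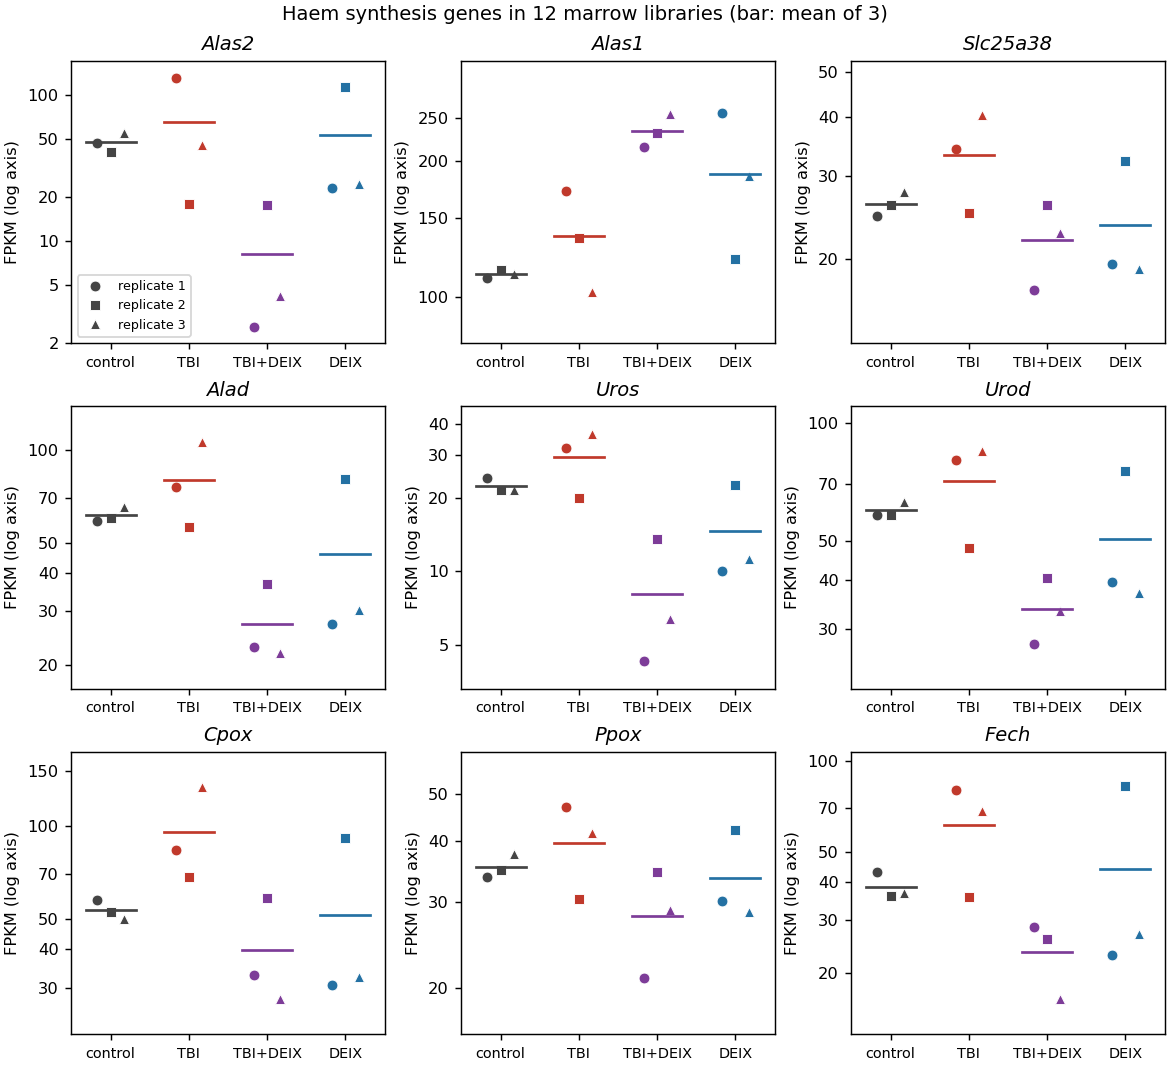
FPKM of each of the 9 genes (log axis, scaled separately per gene) in the 12 libraries, by group; symbols mark replicates 1 to 3 and bars the group means. Alas2 spans 2.58 to 132 FPKM, and Alas1 is the gene whose TBI+DEIX libraries lie above the control and TBI libraries.

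Both synthases were also set against each other within a library, as a ratio of FPKM in which library scaling cancels. Alas2 stood at 0.426, 0.352 and 0.492 of the Alas1 FPKM in the control libraries and at 0.768, 0.133 and 0.443 in the TBI libraries. In the TBI+DEIX libraries the ratio was 0.0120, 0.0762 and 0.0165. In the DEIX libraries it was 0.0897, 0.932 and 0.133, so that the highest and the lowest DEIX library lay on either side of the control range. On the scale of log2(FPKM + 1), where the added 1 keeps scaling from cancelling exactly, Alas2 minus Alas1 was -1.24 ± 0.24 in control, -2.13 ± 1.78 in DEIX, -1.46 ± 1.26 in TBI and -5.06 ± 1.24 in TBI+DEIX (SD, n = 3 each). The difference of TBI+DEIX was -3.60 from TBI, -3.82 from control and -2.93 from DEIX, and its libraries overlapped with none of theirs. Each of these had an exact two-sided permutation p of 0.1, the smallest that 3 against 3 libraries can give, and 0.167 after adjustment over the 5 contrasts. DEIX against control gave -0.89 with an exact p of 0.4. TBI against control gave -0.22 with an exact p of 0.9, and without TBI replicate 2 the sign turned, to 0.47.

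**Figure D2:**
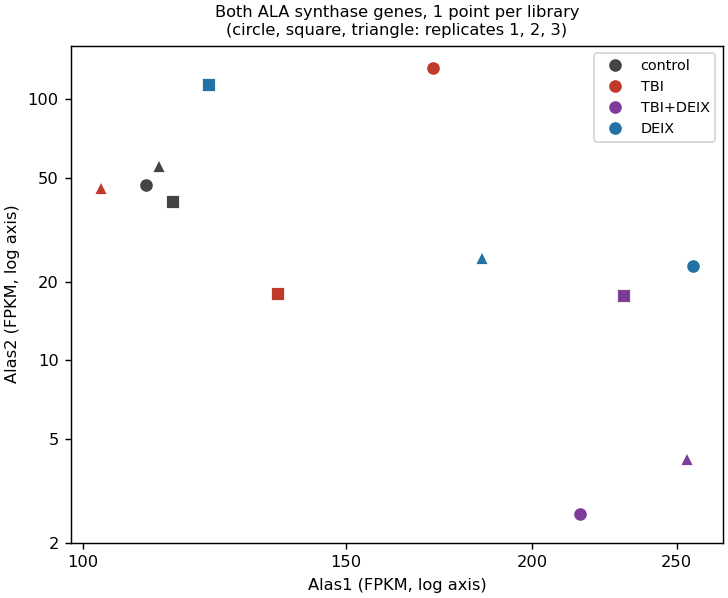
Alas2 against Alas1, both in FPKM on log axes, with 1 point per library coloured by group and shaped by replicate. The TBI+DEIX libraries lie at high Alas1 (215 to 254 FPKM) and low Alas2 (2.58 to 17.6 FPKM), while DEIX replicate 2 lies apart from the other DEIX libraries.

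Slc25a38, which carries glycine to the mitochondrial enzyme, had a range of 2.35-fold over the libraries, beside 2.25-fold for Ppox and 2.49-fold for Alas1. It was 24.7, 26.1 and 27.8 FPKM in control and 34.2, 25.1 and 40.5 in TBI, then 17.2, 26.0 and 22.7 in TBI+DEIX and 19.6, 32.3 and 19.1 in DEIX. Every group overlapped with every other. Its largest difference, -0.57 (95% interval -1.06 to -0.08) between TBI+DEIX and TBI, had a limma adjusted p of 0.129.

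The cytosolic enzymes were lower in TBI+DEIX than in both TBI and control. Alad, which joins 2 molecules of aminolevulinate into porphobilinogen, was 58.8, 60.0 and 65.5 FPKM in control and 75.9, 56.4 and 106 in TBI. It was 23.0, 36.7 and 21.9 FPKM in TBI+DEIX and 27.2, 80.5 and 30.2 in DEIX. Every TBI+DEIX value lay below every control and TBI value, and DEIX replicates 1 and 3 lay in the TBI+DEIX range. Alad fell by 1.51 (SE 0.37) from TBI to TBI+DEIX, with a limma adjusted p of 0.0346, and by 1.18 (SE 0.37) from control, with 0.0321. With 1 library left out, the Alad call was lost in 6 of 12 fits against TBI and in 5 of 12 against control.

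Uros, which closes the ring as uroporphyrinogen III, had the lowest mean of the 9 genes in each group and the largest fitted fall of the 3 cytosolic enzymes, a difference between genes that was not tested. It was 24.0, 21.4 and 21.5 FPKM in control, 10.1, 22.6 and 11.3 in DEIX, 32.0, 19.9 and 36.3 in TBI and 4.32, 13.6 and 6.38 in TBI+DEIX. No TBI+DEIX library reached a control or TBI library. Uros fell by 1.83 (SE 0.37) from TBI to TBI+DEIX (limma adjusted p 0.0205) and by 1.49 (SE 0.37) from control (0.012). Its call against control held in every alternative run. Urod, which removes carboxyl groups from the ring, was 58.3, 58.5 and 62.9 FPKM in control, 39.5, 75.3 and 37.1 in DEIX, 80.3, 48.2 and 84.5 in TBI and 27.5, 40.4 and 33.3 in TBI+DEIX. The TBI+DEIX libraries again lay below all control and TBI libraries. Urod fell by 1.03 (SE 0.27) from TBI (limma adjusted p 0.0434) and by 0.83 (SE 0.27) from control (0.0408). With 1 library left out, the Urod call was lost in 8 of 12 fits against TBI and in 5 of 12 against control. In 11 other alternative runs it was lost 6 times against TBI and 2 times against control. The Uros call against TBI was lost in 2 of 12 fits and 1 of 11 other runs.

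The last 3 enzymes, in the mitochondrion, passed the threshold in no contrast. Cpox, which oxidises coproporphyrinogen, was 57.5, 52.8 and 49.8 FPKM in control and 83.8, 68.5 and 133 in TBI. It was 33.0, 58.5 and 27.6 FPKM in TBI+DEIX and 30.5, 91.2 and 32.5 in DEIX. All TBI values lay above all control values, as for 22% of all genes tested, by 0.77 on the log2 scale with a 95% interval from -0.11 to 1.65 and a limma adjusted p of 0.347. Between TBI+DEIX and TBI its libraries did not overlap either, and the difference was -1.26 (SE 0.40) with an adjusted p of 0.0748. Ppox, which oxidises protoporphyrinogen, had the narrowest range: 33.7, 34.9 and 37.6 FPKM in control, 30.2, 42.2 and 28.5 in DEIX, 46.9, 30.4 and 41.6 in TBI and 20.9, 34.5 and 28.9 in TBI+DEIX. Its groups overlapped throughout. Fech, which inserts iron into protoporphyrin, was 42.9, 35.9 and 36.8 FPKM in control, 23.0, 82.5 and 26.9 in DEIX, 80.2, 35.6 and 68.3 in TBI and 28.5, 25.9 and 16.4 in TBI+DEIX. Its TBI+DEIX libraries lay below all control and TBI libraries, with a difference from TBI of -1.30 (SE 0.43) and a limma adjusted p of 0.0827.

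The order of the levels differed between groups. In control marrow the means ran from Alas1 through Alad, Urod, Cpox, Alas2, Fech, Ppox and Slc25a38 to Uros. Neighbours from Alad to Urod and along Cpox, Alas2, Fech and Ppox overlapped in their libraries. Alas1, Slc25a38 and Uros each stood clear of their neighbours. In TBI+DEIX the means of Alas2 and Uros, 8.12 and 8.08 FPKM, were the lowest, and Cpox at 39.7 ± 16.5 FPKM came next after Alas1 at 233 ± 19.6.

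Over all 10994 genes tested, 8.1% were called between TBI+DEIX and TBI, 3.41% as lower and 4.69% as higher. The balance turned with the scaling: 516 genes were called higher and 375 lower on the FPKM scale, 385 and 453 with median-of-ratios scaling, and 54 and 103 (1.43% called) with a fixed sum per library. Of the 9 genes, 3 fell (Alad, Uros and Urod) and none passed as higher. All 9 had an unadjusted p under 0.05. The median over the 9 was -1.26, beside 0.00 over all genes tested. Libraries did not overlap for 6 genes as lower, where the share over all genes was 12.7%, and for Alas1 as higher, where it was 14.5%. These 3 calls depended on the libraries in the fit. With only the 6 TBI and TBI+DEIX libraries, 0% of the 10994 genes were called, though 2015 had an unadjusted p under 0.05. The count among the 9 was 0 without TBI replicate 3 or without TBI+DEIX replicate 3, where 0.0455% and 0.464% of all genes were called. It was 1 without control replicate 1, 2 or 3, where 4.19%, 3.25% and 4.94% of all genes were called. It was 5 without TBI+DEIX replicate 1 or 2, where 25.8% and 8.7% were called, and 7 without DEIX replicate 2, where 10% were called.

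Between TBI+DEIX and control, 30% of all genes were called, 13.1% as lower and 16.9% as higher. These were 1444 lower and 1855 higher genes, beside 2036 and 1285 with median-of-ratios scaling and 1239 and 546 (16.2% called) with a fixed sum. Alas2, Alad, Uros and Urod fell and Alas1 rose, and the median over the 9 was -0.72, beside 0.02 over all genes. Fech lay wholly below control, as 21.1% of all genes did (-0.72, limma adjusted p 0.233), while Cpox, Ppox and Slc25a38 overlapped with control, at -0.49, -0.35 and -0.26. The calls of Alas1 and Uros alone were left without control replicate 1, 2 or 3, where 20.9%, 18.2% and 20.1% of all genes were called. The same held without TBI+DEIX replicate 1 (38.5% of all genes) or TBI+DEIX replicate 3 (24.3%).

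Neither TBI nor DEIX given without the other passed the threshold for any of the 9. Between TBI and control 3.99% of all genes were called. All 9 differences were above 0, with a median of 0.31 beside 0.05 over all genes. With 1 library left out, the median lay between 0.16 and 0.54 (0.54 without TBI replicate 2), the share of all genes called between 1.39% and 12.2%, and Alas2 between -0.70 without TBI replicate 1 and 0.71 without TBI replicate 2. Of the 9, 1 lay below 0 under median-of-ratios scaling, and 5 did when libraries were weighted by limma's default algorithm. None of the 9 had an unadjusted p under 0.05. Between DEIX and control 7.24% of all genes were called, the median over the 9 was -0.23 beside 0.02, and only Alas1 (unadjusted p 0.0187) was under 0.05 before adjustment. Uros was at -0.66 and Alad at -0.59, with limma adjusted p of 0.298 and 0.354. Without DEIX replicate 2, where 8.53% of all genes were called, Alas1 was higher by 0.95 (limma adjusted p 0.0259) and Alad lower, at -1.07 (0.0355), and the median over the 9 was -0.63.

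Between TBI+DEIX and DEIX, 2.57% of all genes were called and none of the 9. Alas2 did not overlap between these groups (-2.56, limma adjusted p 0.13), where 8.96% of all genes did not overlap as lower. Alas2 and Uros had an unadjusted p under 0.05. The median of the 9 was -0.51, and -0.11 without DEIX replicate 2. The interaction, which is the DEIX difference with irradiation minus the one without, was called for 0.2% of all genes and none of the 9. It was -2.58 (SE 1.12, unadjusted p 0.0414, limma adjusted p 0.619) for Alas2 and -1.17 (SE 0.52, unadjusted p 0.0466, limma adjusted p 0.65) for Uros. Whether DEIX acted differently in irradiated marrow was thus not shown for any of the 9. The contrasts share groups of libraries, so their values are not independent of each other.

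**Figure D3:**
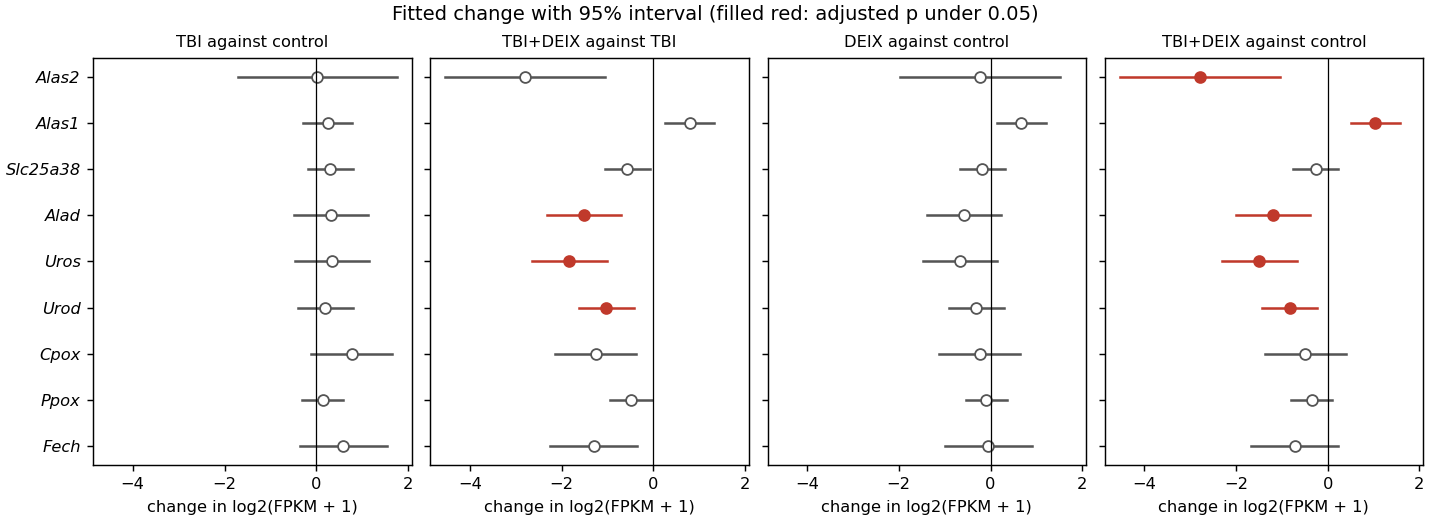
Fitted change in log2(FPKM + 1) with its 95% interval for the 9 genes in 4 contrasts; filled red points passed an adjusted p of 0.05 over all genes tested. Alad, Uros and Urod are filled in both contrasts with TBI+DEIX, Alas2 and Alas1 only in the one against control, and the Alas2 intervals are the widest.

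The 9 genes differed in amplitude, and Alas1 also differed from the others in direction in TBI+DEIX. The highest library exceeded the lowest 51.2-fold for Alas2, 8.39-fold for Uros, 5.02-fold for Fech, 4.86-fold for Alad, 4.84-fold for Cpox, 3.07-fold for Urod, 2.49-fold for Alas1, 2.35-fold for Slc25a38 and 2.25-fold for Ppox. The erythroid score ranged over 2.91 log2 units, between the 5.21 of Alas2 and the 2.81 of Uros. That score is a mean, and single erythroid markers ranged more or less widely. Hbb-bs ran from 34.2 to 3536 FPKM, and Tfrc from 37.8 to 155 FPKM. The 8 members other than Alas1 and the erythroid score were lowest of their group in TBI replicate 2 and highest in DEIX replicate 2. They were also highest of their group in TBI+DEIX replicate 2, apart from Fech, which was highest in TBI+DEIX replicate 1. The summed level of the 23 erythroid markers was 5703 to 8715 FPKM in control, 2279 to 12324 in DEIX, 3088 to 13200 in TBI and 615 to 2702 in TBI+DEIX. Of the 23, 10 fell from TBI (3.41% of all genes tested fell) and 15 from control (13.1%) to TBI+DEIX, with medians of -1.70 and -1.81, and in each contrast none of these 23 rose. Among 9 late erythroid markers, 5 fell from TBI and 8 from control, with medians of -2.57 and -2.19. Among 10 early erythroid markers, 1 fell from TBI, and 2 fell and 1 rose from control, with medians of -1.02 and -0.77. The neutrophil score was -0.43 to -0.14 in control, -0.27 to 0.31 in DEIX, -0.17 to 0.15 in TBI and -0.81 to 0.74 in TBI+DEIX. Of 10 neutrophil markers, 3 (Ltf, Mmp9 and Cxcr2) rose from control to TBI+DEIX and none fell, where 16.9% of all genes tested rose. Markers of other cells moved in the same contrasts. From control to TBI+DEIX, 8 of 9 B lineage markers, 5 of 6 megakaryocyte markers and 3 of 8 T and NK cell markers fell (13.1% of all genes tested fell), and 4 of 10 proliferation genes fell from TBI to TBI+DEIX (3.41%). TBI+DEIX replicate 1 stood apart, with a neutrophil score of -0.81 beside 0.74 and 0.74 and a B lineage score of -2.65 beside 0.05 and -0.85 in replicates 2 and 3. The part of these cell types in the results for the 9 genes was not tested.

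**Figure D4:**
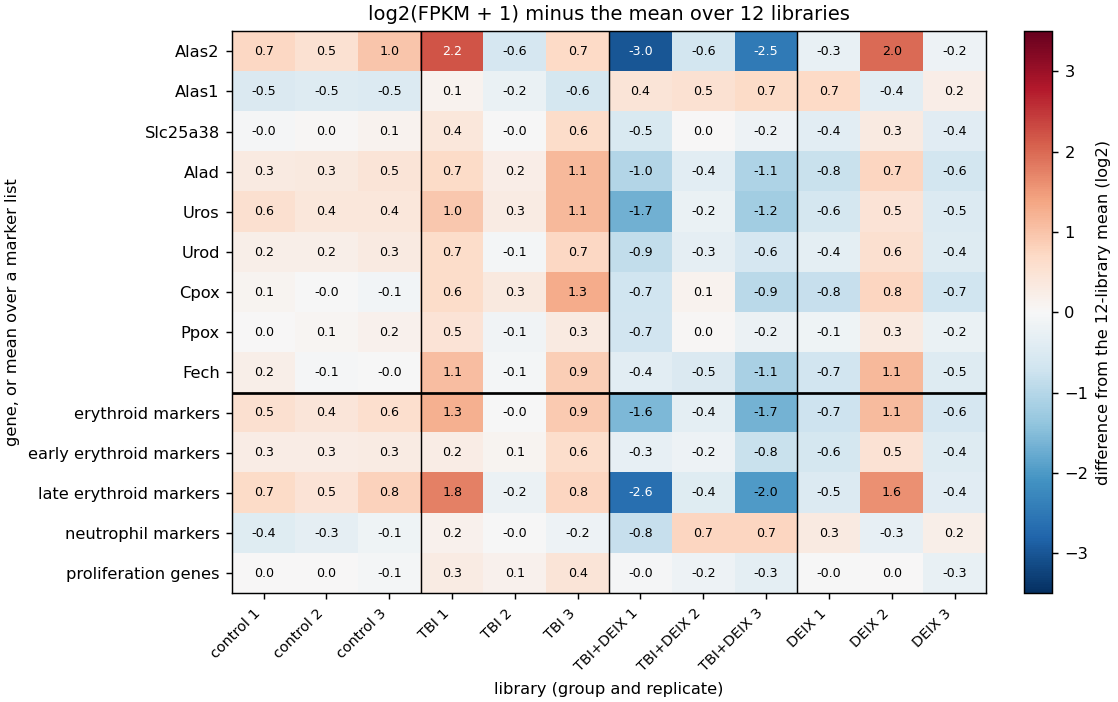
Log2(FPKM + 1) minus the mean over the 12 libraries, for the 9 genes (upper rows) and for the mean of marker lists (lower rows), with 1 column per library and the value in each cell. Alas2 is lowest in TBI+DEIX replicates 1 and 3, as the mean of the erythroid markers is, and Alas1 is above its mean in all 3 TBI+DEIX libraries.

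Likeness was measured as the root mean square difference between centred log2 profiles over the 12 libraries, as a description with no test. Among the genes most like Alas2 were Slc4a1 (the band 3 anion exchanger of red cells) at 0.31, Tmcc2 at 0.33, Hba-a1 at 0.35 and Epb42 (a red cell membrane skeleton protein) at 0.36. Among those most like Alas1 were Slc28a2 (a nucleoside transporter) at 0.10, Hrh2 (the histamine H2 receptor) at 0.14, Serpinb1a (an inhibitor of neutrophil proteases) at 0.15 and Glipr2 at 0.16. Each of these 4 reached its highest level in TBI+DEIX replicate 3. Among the 9, the closest pair was Ppox and Slc25a38 at 0.14, followed by Urod and Slc25a38 at 0.23 and by Alad with Uros at 0.25. Alas1 and Alas2 were the furthest apart, at 1.84. A gene of small amplitude is near any other flat gene by this measure.

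Of 24 genes that supply haem synthesis (mitochondrial carriers, iron-sulphur cluster assembly and related proteins), all were tested. From TBI to TBI+DEIX, 2 fell: Glrx5, a glutaredoxin of iron-sulphur cluster assembly, by 1.11 (limma adjusted p 0.0339), and Tmem14c, a porphyrin carrier of the inner membrane, by 0.82 (0.0474). These 2 are 8.33% of the list, beside 3.41% lower over all genes tested. From control to TBI+DEIX, 5 (20.8%, beside 13.1% over all genes tested) fell and none rose: Glrx5 by 0.86, Fdx1 (a ferredoxin) by 0.66, Isca1 by 0.77, Isca2 by 0.35 and Atpif1 (the inhibitory factor of ATP synthase) by 1.05. Glrx5 was 27.1, 30.2 and 34.6 FPKM in control and 16.5, 19.6 and 13.4 in TBI+DEIX, without overlap. The medians were -0.26 and -0.22. Tspo, an outer membrane protein that binds porphyrins and the most abundant of the 24, was at 0.84 and 0.85, with limma adjusted p of 0.104 and 0.0535. No gene of this list passed in the other contrasts. With 1 library left out, the call against TBI was lost in 6 of 12 fits for Glrx5 and in 9 of 12 for Tmem14c. Against control it was lost in 2 of 12 for Atpif1, 3 for Fdx1, 4 for Glrx5 and 8 each for Isca1 and Isca2.

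Of 16 genes that use, move or break down haem, 13 were tested, and members passed in both directions. From TBI to TBI+DEIX, 2 rose and 1 fell (23.1%, beside 8.1% of all genes called). From control to TBI+DEIX, 3 rose and 2 fell (38.5%, beside 30% of all genes called). Hmox1, the haem oxygenase that opens the ring, was 72.3, 71.2 and 60.3 FPKM in control and 69.4, 63.8 and 44.4 in TBI. It was 116, 116 and 75.7 FPKM in TBI+DEIX and 52.4, 47.2 and 51.6 in DEIX. The TBI+DEIX libraries lay above all others, and the DEIX libraries lay below all control libraries, as for 17.2% of all genes tested. Hmox1 rose by 0.78 from TBI (limma adjusted p 0.0353), by 0.56 from control (0.0452) and by 0.98 from DEIX (0.0252). Bach1, a repressor of Hmox1 that haem inactivates, rose by 0.49 from TBI and by 0.70 from control to TBI+DEIX, and by 0.58 from control to DEIX (limma adjusted p 0.0434, 0.00286 and 0.0254). Flvcr1, a haem exporter, rose by 0.56 from control to TBI+DEIX. Hebp1, a haem-binding protein, fell by 1.52 from TBI and by 1.45 from control, and Blvrb, a biliverdin reductase, fell by 1.33 from control. On the scale of a fixed sum per library, Hmox1 passed in none of its 3 contrasts and Bach1 passed only between TBI+DEIX and control, with adjusted p of 0.254 and 0.365 against TBI. With 1 library left out, the Hmox1 call was lost in 7 of 12 fits against TBI, 9 against control and 5 against DEIX. The Bach1 call was lost in 9 of 12 fits against TBI and 5 between DEIX and control, and in none between TBI+DEIX and control. Hebp1 lost its call in 3 of 12 fits against TBI and none against control, Blvrb in 4 and Flvcr1 in none against control. No call against TBI was left in either list with only the 6 libraries compared.

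**Figure D5:**
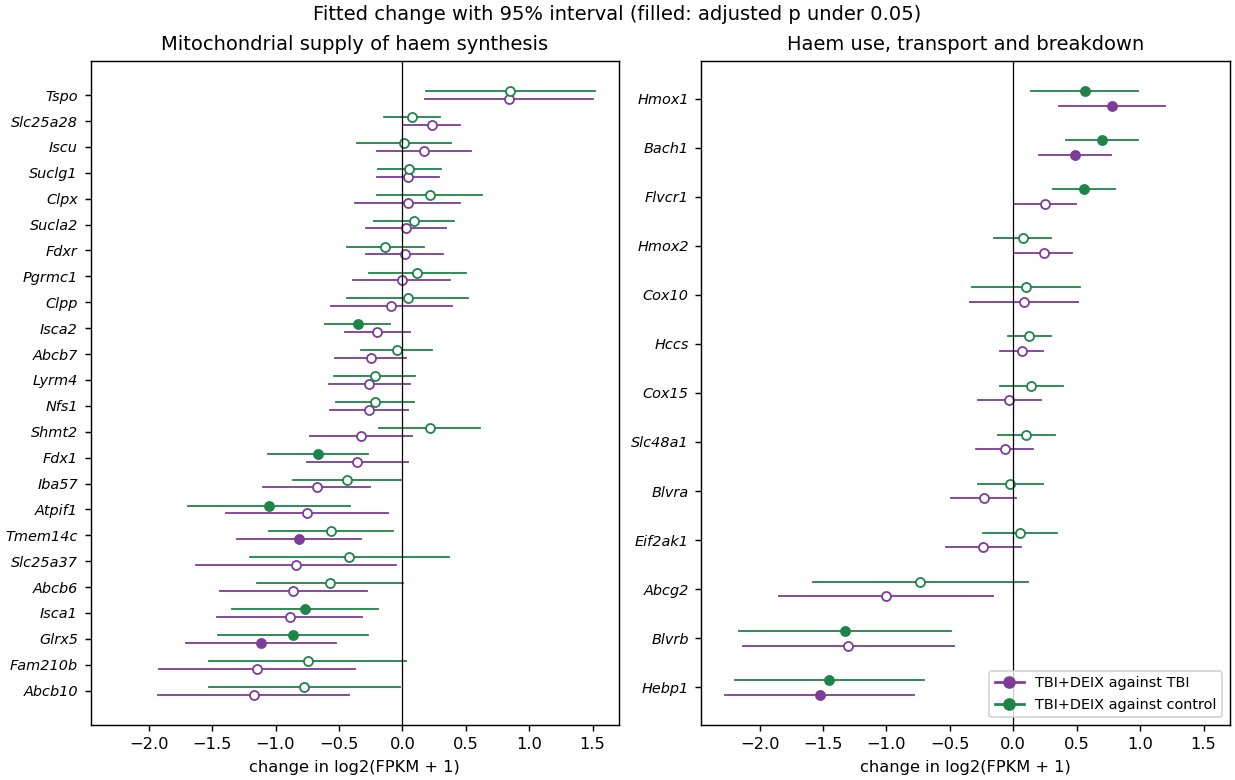
Fitted change in log2(FPKM + 1) with its 95% interval for 24 genes that supply haem synthesis and 13 that use, move or break down haem, in TBI+DEIX against TBI (purple) and against control (green); filled points passed an adjusted p of 0.05. Glrx5 and Hebp1 are filled and lower in both contrasts, and Hmox1 and Bach1 are filled and higher in both.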

How the data were processed

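The deposited table holds the authors' FPKM values per gene and library, from directional libraries of total RNA. The submitters' processing notes name STAR 2.6, Cufflinks 2.2.1 and the mm10 build, without their roles. Identifiers were matched to GENCODE symbols (21853 of 21853). Count models were not used, since FPKM values are not counts.

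Values were tested as log2(FPKM + 1) with limma 3.58.1 in R 4.3.3 (trended eBayes, 1 model of 4 group means, 8 residual degrees of freedom), for genes at 1 FPKM or more in at least 3 of 12 libraries (10994), with a call at p under 0.05 after Benjamini-Hochberg adjustment over all genes tested. The fit was also run on simulated data with known changes, as a check of the code only, and its outcome is not given here. The difference between both synthases was tested by exact permutation.

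The members and lists were chosen with earlier results of these data known. Members could be named in every contrast. Companion genes could be named where called or among the 3 most abundant of their list. Not all are: Slc48a1 of the use list and most called markers of cell types are counted without a name. Further genes are named from the 5 most like each synthase among those of mean FPKM of at least 5. Some genes that this rule or the companion lists held are not reported here. Companion counts leave them out, a change made after the data were in hand. The GATA search was chosen then too.

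Replicate numbers did not pair the libraries: deviations of same-numbered libraries correlated from -0.447 to 0.242, with a median of -0.066 over 18 pairs. Alternatives covered the pseudocount, filter, scaling, library weights, libraries in the fit, a replicate block and each library left out.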

Additional observations from a re-analysis of the deposited data

Results flagged for a closer look

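Hmox1 is named here because its differences with DEIX had opposite signs in unirradiated and in irradiated marrow, so the test of that difference is on a gene chosen for the pattern. All 3 DEIX libraries (52.4, 47.2 and 51.6 FPKM) lay below the control libraries (72.3, 71.2 and 60.3 FPKM), as for 17.2% of all genes, and all 3 TBI+DEIX libraries (116, 116 and 75.7 FPKM) lay above the TBI libraries (69.4, 63.8 and 44.4 FPKM), as for 14.5%. The log2 differences were -0.42 (SE 0.19, limma adjusted p 0.2) and 0.78 (SE 0.19, limma adjusted p 0.0353). The test of the difference itself, the interaction, gave 1.20 (SE 0.27, unadjusted p 0.000965) and did not pass after adjustment over all genes (limma adjusted p 0.137). It passed with both library weightings (limma adjusted p down to 0.00344), which called 10.4% (default) and 4.84% (gene by gene) of all genes, and in no other alternative run. Groups of 3 libraries are too small for a check of outlying values.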

How the results depend on the processing

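Between TBI+DEIX and TBI, where 3 were called, the count was 1 without a filter on low values (3.91% of all genes called, beside 8.1%), 0 with only the groups compared (0%), 1 with a replicate block (4.31%), and 0 to 7 when 1 library was left out (0.0455% to 25.8%). Between TBI+DEIX and control, where 5 were called, it was 3 without a filter (21% of all genes, beside 30%) and 2 to 5 with 1 library left out (18.2% to 38.5%). Between DEIX and control, where none was called, it was 0 to 2 with 1 library left out (1.33% to 21.8% of all genes). With a replicate block the calls against control were 4 (27.3% of all genes), and the same-number correlations gave no ground for pairing. None of the 9 was called between TBI+DEIX and DEIX or for the interaction in any alternative run.

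Library weights were run with 2 algorithms of limma. The default stopped before convergence and gave control replicate 2 a weight of 97.5 and TBI+DEIX replicate 1 a weight of 0.0498. The gene-by-gene algorithm was chosen after seeing the data. The default called 3 of the 9 between TBI and control, where it called 63.8% of all genes, with Alas2 reversed at -0.93 beside 0.02, and Hebp1 reversed there at -0.36. It also called 3 between DEIX and control (47.7% of all genes) and 6 between TBI+DEIX and control (62.5%). The gene-by-gene algorithm called 0 between TBI and control (38.4%), 3 between DEIX and control (41%) and 5 between TBI+DEIX and control (56.3%). The counts of members are thus near or below the shares over all genes. Both weightings shrank the median over the 9 from -1.26 to -0.69 (default) and -0.84 (gene by gene) between TBI+DEIX and TBI, and from -0.92 to -0.18 and -0.33 for the interaction.

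With 1 library left out, the median over the 9 lay between -0.63 and -0.010 for DEIX against control and between -1.20 and -0.44 for the interaction. For TBI+DEIX against DEIX it lay between -0.69 and -0.11. DEIX replicate 2 was the library left out at -0.63, -0.44 and -0.11. Alas2 minus Alas1 between TBI and control lay between -0.76 and 0.47, with the sign turned without TBI replicate 2. Scaling to a fixed sum moved the median of all genes to -0.12 between TBI+DEIX and TBI and between DEIX and control, and to -0.10 and -0.02 when S100a8, S100a9 and Ngp were left out of the sum. Of the values of single members under alternatives, 1170 stayed on their side of the threshold, 44 lost a call, 27 gained one and 1 reversed with a call. Of the 1170, 33 changed sign without being called. The cause of these shifts was not tested. Total reads are unknown, so the counting error behind low values such as those of Alas2 could not be given.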
